A study of Mus musculus with 18 samples.

Results

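The genes described here are 5 core pluripotency genes (Pou5f1, Sox2, Sall4, Utf1 and Lin28a) and 5 formative genes (Fgf5, Otx2, Pou3f1, Sox3 and Zic2), chosen by symbol. They were 10 of the 14804 protein-coding genes that the expression tables of the series held between them. The series used bulk RNA-seq to compare normoxia with days 2 and 7 of hypoxia in 3 mouse stem cell types, with 2 biological replicates per condition, 6 libraries per cell type and 18 in all. Embryonic stem cells (ESCs) were of the E14 line, wild type in the study's methods, and were grown without feeders on gelatin in serum with LIF. Trophoblast stem cells (TSCs) were grown on feeder cells with FGF4 and heparin, and extra-embryonic endoderm (XEN) cells on gelatin in medium conditioned by fibroblasts. No line was named in the labels for either of these. No genetic change or drug was part of any group, and hypoxia meant culture at 2% oxygen. All 10 genes were among the 13578 genes of the ESC table. The table of TSCs held 8 of them among 13518 genes, and that of XEN cells held 7 among 11538. Pou5f1 and Otx2 were not analysed here in TSCs, nor were Sox2, Fgf5 and Sox3 in XEN cells.

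Core pluripotency factors keep the epiblast and the cells derived from it able to form all tissues of the embryo. OCT4, the product of Pou5f1, and SOX2 bind DNA together and sustain the network. As the epiblast leaves the naive state it passes through a formative phase, in which OTX2 and the POU factor encoded by Pou3f1 (OCT6) take part in opening new enhancers and FGF5, SOX3 and ZIC2 become expressed. Several of these genes are not restricted to the epiblast. SOX2 also serves the self-renewal of trophoblast stem cells downstream of FGF signalling, and SALL4 is also present in extra-embryonic endoderm.

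The deposited unit was TPM, a length-scaled share of the reads of a library. The values proved to be scaled by the full span of each gene with its introns, so levels of different genes are compared below on a second scale, TPM per exon length, made from the same reads. Values of 1 gene across libraries are given in the deposited TPM. A gene was called higher or lower where limma's moderated test on log2(TPM + 0.5) over the 6 libraries of a cell type gave an adjusted p (Benjamini-Hochberg, over all genes tested in that cell type) of 0.1 or less with a fold change over 1.5. All log2 fold changes below are on that scale, which understates changes of low genes, and are followed by their standard error (SE). The 18 libraries held between 35592641 and 75204029 reads on the genes of their tables. Markers matched the labelled cell types: Nanog was listed at 755 to 1028 TPM in ESCs, Cdx2, Elf5 and Eomes were expressed in all TSC libraries, and Gata4, Gata6 and Sox17 in all XEN libraries.

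In GRCm38, Pou5f1 lies at chr17:35506018-35510772 on the plus strand, in 6 exon blocks. Sox2 is a single-exon gene at chr3:34650405-34652461, plus strand, inside the non-coding gene Sox2ot on the same strand. Sall4 (chr2:168748332-168767943) and Lin28a (chr4:134003330-134018841) are on the minus strand, each in 7 exon blocks, and Utf1 (chr7:139943789-139945112) on the plus strand in 2. Of the formative genes, Fgf5 (chr5:98254184-98277030) and Zic2 (chr14:122475435-122479852) have 3 exon blocks each on the plus strand. Otx2 (chr14:48657677-48673819) has 7 on the minus strand. Pou3f1 (chr4:124656807-124660655, plus) and Sox3 (chrX:60891366-60893430, minus) are single-exon genes. Pou5f1, Sall4, Lin28a, Otx2 and Pou3f1 each overlap a non-coding gene on the other strand. Since it was not stated whether counting used strand, reads of such partners cannot be told apart from theirs. Sox2 overlaps Sox2ot, and Otx2 also overlaps Gm49154, on the same strand, where counting by strand would not separate the reads.

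Sox2, Lin28a and Utf1 were 3 of the 4 core genes that were lower in TSCs on day 7 than on day 2 of hypoxia, and their promoters are shown for that reason. The sequences are from RefSeq (GRCm38.p6), run 5′ to 3′ on the strand of the gene, and stop before the start of transcription in both RefSeq and GENCODE. They cover chr3:34649745-34649994 for Sox2 (plus strand), chr4:134018842-134019066 for Lin28a (minus strand) and chr7:139943606-139943788 for Utf1 (plus strand). Capitals mark SOX cores, searched as ACAAAG and ACAATG on both strands.
Sox2: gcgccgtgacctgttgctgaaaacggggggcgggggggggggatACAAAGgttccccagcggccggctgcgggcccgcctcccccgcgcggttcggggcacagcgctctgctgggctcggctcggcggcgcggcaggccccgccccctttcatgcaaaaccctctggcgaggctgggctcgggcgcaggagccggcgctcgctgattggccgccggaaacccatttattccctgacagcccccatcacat
Lin28a: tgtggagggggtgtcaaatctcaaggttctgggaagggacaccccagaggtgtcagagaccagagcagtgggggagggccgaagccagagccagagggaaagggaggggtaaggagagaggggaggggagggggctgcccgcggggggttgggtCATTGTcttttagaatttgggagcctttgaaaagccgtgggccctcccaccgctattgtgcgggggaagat
Utf1: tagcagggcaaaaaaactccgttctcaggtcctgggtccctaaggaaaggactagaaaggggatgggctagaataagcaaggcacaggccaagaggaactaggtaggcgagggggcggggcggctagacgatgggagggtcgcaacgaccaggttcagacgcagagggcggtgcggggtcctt

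The Sox2 and Lin28a windows held 1 SOX core each, that of Lin28a on the other strand, and the Utf1 window held none. Among 32851 RefSeq promoter windows of the same length and place, 25.2%, 23.5% and 19.4% held a SOX core for the windows of Sox2, Lin28a and Utf1. The octamer ATGCAAAT, the site of OCT factors, and the hypoxia response cores ACGTG and GCGTG were searched in the same way on both strands and matched none of the 3 windows. The octamer stood in 1.6%, 1.51% and 1.17% of all windows, and either hypoxia core in 38.6%, 35.3% and 28.8%. A missing match says only that these letters are not in the window. The promoters of Sall4, Pou3f1, Sox3 and Zic2 were not analysed here.

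In TSCs, 6 of the 7 genes tested had a positive log2 fold change on day 2 of hypoxia, and all 7 had a negative one on day 7. No gene was called on day 2, where 2 of the 7 had an unadjusted p under 0.05 (13.1% of all genes did) and voom on recovered reads also called none. In the other comparisons, 3 (Sox2, Lin28a and Zic2) were lower on day 7 than in normoxia, and 6 were lower on day 7 than on day 2. Of all 12481 genes tested, 0.2% were called in the first comparison, 0.345% were called lower in the second and 13.8% were called lower in the third. In the third, 296 of all genes were called higher and 1723 lower, a split that became 738 and 968 after scaling by median-ratio factors. In whole cultures such as these, fewer cells that express a gene and less RNA per cell cannot be told apart. No normoxic libraries were labelled as day 2 or day 7 in any cell type. Time in hypoxia and time in culture therefore cannot be told apart either.

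Sox2 was expressed at 660 and 714 TPM in the 2 normoxic TSC libraries, at 1045 and 1104 TPM on day 2, and at 172 and 129 TPM on day 7. Both day 2 libraries were above the normoxic ones and both day 7 libraries were below all others. The log2 fold change on day 2 was 0.64 (SE 0.20), with an adjusted p of 0.273, which did not pass. On day 7 Sox2 was 4.61-fold lower than in normoxia (log2 fold change −2.20, SE 0.20, adjusted p = 0.0185, limma). It was 7.21-fold lower than on day 2 (−2.85, SE 0.20, adjusted p = 0.00579).

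Lin28a encodes an RNA-binding protein that blocks maturation of let-7 miRNAs. In TSCs its TPM was 48.5 and 59.1 in normoxia, 106 and 121 at day 2 and 18.4 and 12.6 at day 7. It followed the order of Sox2, with no overlap between any pair of conditions. The day 2 value was 2.10-fold the normoxic one (log2 fold change 1.07, SE 0.24), with an adjusted p of 0.199. On day 7 Lin28a was 3.43-fold lower than in normoxia (log2 fold change −1.78, SE 0.24, adjusted p = 0.0801, limma) and 7.21-fold lower than on day 2 (−2.85, SE 0.24, adjusted p = 0.00685). The call against normoxia held in 9 of 17 alternatives. It was lost with no filter on low values, with the stricter threshold, with the replicate block and in a fit to the 4 libraries compared, where Pou3f1 was called in its place (adjusted p = 0.0892, limma). It was also lost on leaving out any 1 of the day 2 or day 7 libraries.

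Utf1, a chromatin-associated factor of undifferentiated cells, was the core gene with the highest level in TSCs. Its TPM was 1887 and 3143 in normoxia, 3323 and 2895 at day 2 and 1034 and 1111 at day 7. The normoxic replicates stood far apart, and both day 7 libraries were below all other libraries. The day 7 log2 fold change against normoxia was −1.18 (SE 0.27, adjusted p = 0.212, limma), which did not pass, while the fall against day 2 did (−1.53, SE 0.27, adjusted p = 0.0284). Sall4, a zinc finger factor that keeps Pou5f1 expressed in ESCs, was listed at 54.3 and 66.1 TPM in normoxia, 92.1 and 80.1 at day 2 and 56.6 and 39.1 at day 7. Its day 7 libraries overlapped the normoxic ones (log2 fold change −0.35, SE 0.24, adjusted p = 0.661), and it was 1.82-fold lower on day 7 than on day 2 (−0.86, SE 0.24, adjusted p = 0.0719). With TPM rescaled by median-ratio factors this last call was lost and 5 of the 7 genes stayed called, all lower. Of all genes, 968 were then called lower and 738 higher.

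Zic2, a zinc finger factor of the formative epiblast and the neural plate, showed the lowest day 7 level relative to normoxia of all 7 genes. It was listed at 156 and 127 TPM in normoxia, 94.3 and 161 at day 2, and 19.4 and 9.03 at day 7. Normoxic and day 2 libraries overlapped, and the day 7 libraries stood apart from both. Zic2 was 10.3-fold lower on day 7 than in normoxia (log2 fold change −3.36, SE 0.39, adjusted p = 0.0567, limma) and 8.99-fold lower than on day 2 (−3.17, SE 0.39, adjusted p = 0.0163). The reads behind the day 7 values were 333 and 165, against 1659 to 2828 in the other 4 libraries.

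Pou3f1 was at 422 and 451 TPM in normoxic TSCs, 456 and 953 TPM at day 2 and 136 and 164 TPM at day 7. All 3 conditions were without overlap, although 1 of the day 2 libraries was close to normoxia. Against normoxia the day 7 log2 fold change of −1.54 (SE 0.33) did not pass (adjusted p = 0.187), and against day 2 Pou3f1 was 4.40-fold lower (−2.14, SE 0.33, adjusted p = 0.0215). Sox3, a SOXB1 factor related to Sox2, was at 65.3 and 24.8 TPM in normoxia, 27.5 and 94.4 at day 2 and 16.4 and 10.1 at day 7. The replicates of normoxia and of day 2 each differed by more than the means of these conditions did, and its log2 fold changes on day 7 (−1.61 against normoxia and −1.94 against day 2, SE 0.65 each) had adjusted p-values of 0.459 and 0.110. Fgf5, a secreted FGF ligand, was listed at 0.048 to 0.619 TPM from 4 to 55 reads and stayed below the filter for testing.

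**Figure D1:**
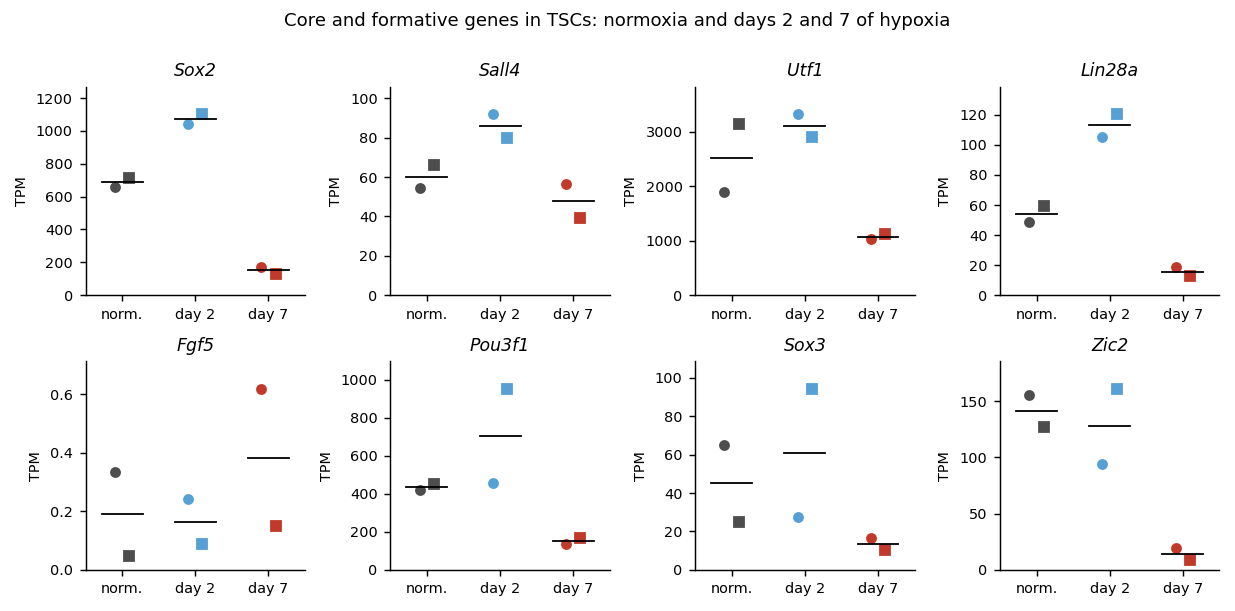
TPM (linear axis from 0) of the 8 genes analysed in TSCs by condition, with circles for replicate 1, squares for replicate 2 and bars for the mean of 2 libraries. Sox2 and Lin28a were highest on day 2 and lowest on day 7, Zic2 fell to 19.4 and 9.03 TPM on day 7, and the normoxic and day 2 replicates of Sox3 stood far apart.

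On day 7 all 7 genes had negative log2 fold changes against both normoxia and day 2, with medians of −1.61 and −2.14. The medians over all genes tested in TSCs were −0.18 and −0.24. Median-ratio scaling moved these to −0.00 and 0.02. With it 3 and 5 of the 7 genes were called, where 0.288% and 13.7% of all genes were, in either direction. On day 2 the median of the 7 genes was 0.52 against 0.07 for all genes, and 4 of 7 were above normoxia without overlap, as were 30.6% of all genes. The 2 comparisons with normoxia share their control libraries, and the 2 with day 7 share the day 7 libraries. Without overlap, 6 of 7 genes were lower on day 7 than in normoxia, where 32.3% of all genes were, and 7 of 7 were lower than on day 2, where 44.9% were. Without day 7 replicate 1, none of the 7 passed against normoxia, where 0% of all genes did, and Sox2, Lin28a and Zic2 passed against day 2, where 2.28% did. Without day 7 replicate 2, none of the 7 and 0% of all genes passed in either comparison. Without day 2 replicate 1, Sall4 and Utf1 no longer passed against day 2 (0.24% of all genes did), and without day 2 replicate 2 Sall4 did not (12.2%). With 1 or the other day 2 library left out, Lin28a no longer passed against normoxia, where Pou3f1 did (0.328% of all genes in each fit). With 1 or the other normoxic library left out, Sox3 passed against day 2 as well, so that all 7 did (17.7% of all genes in each fit). Where a condition kept 1 library in these fits, that library is assumed to vary like the other groups. The shares of all genes given for the fits with a library left out cover both directions. The signs held: over all 6 fits with 1 library left out, the day 7 log2 fold change of Sox2 against normoxia was between −2.41 and −2.00, that of Lin28a between −2.05 and −1.51, and that of Zic2 between −3.89 and −2.83.

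The TSC libraries also differed in RNA of fibroblast type, the kind of cell used as feeders. Summed over 10 fibroblast genes, TPM was 1880 and 269 in normoxia, 210 and 974 at day 2 and 433 and 265 at day 7. The libraries with the most, normoxia replicate 1 and day 2 replicate 2, were also the libraries with the most Sox3 (65.3 and 94.4 TPM). Day 2 replicate 2 had the most Pou3f1 (953 TPM), but normoxia replicate 1 had less Pou3f1 than replicate 2 (422 against 451 TPM). The part of fibroblast RNA in the values of Sox3 and Pou3f1 was not tested. Of the 10 fibroblast genes none was called against normoxia on day 7 and 1, Fbln1, was lower than on day 2. Of all genes tested, 0.345% and 13.8% were called lower in these comparisons.

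**Figure D2:**
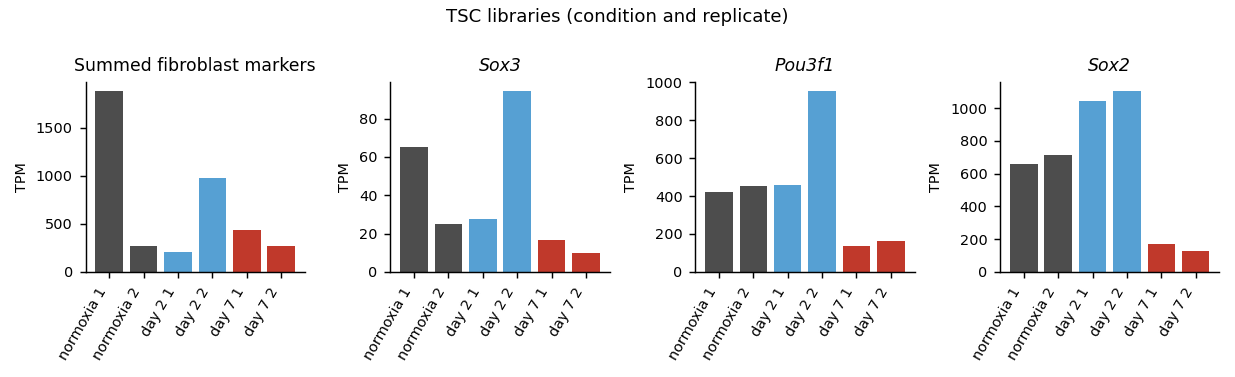
Bars from 0 show, for each of the 6 TSC libraries, the summed TPM of 10 fibroblast genes and the TPM of Sox3, Pou3f1 and Sox2. The fibroblast sum was 1880 in normoxia replicate 1 and 974 in day 2 replicate 2, the libraries with the most Sox3, whereas Sox2 differed less within than between conditions.

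In ESCs none of the 10 genes was called in any of the 3 comparisons. Of the 12271 genes tested, 0% were called on day 2, 0.758% on day 7 and 0.179% between the days, so few genes were called at all in this fit. The study's own fit to read counts, at the same thresholds, called more genes in ESCs on both days. At an unadjusted p under 0.05, 1 of the 10 genes passed on day 2, 1 on day 7 and 0 between the days, against 5.05%, 8.04% and 4.26% of all genes. Voom on recovered reads also called none of the 10.

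The 5 core genes had day 7 log2 fold changes between −0.20 and −0.03 against normoxia. Pou5f1 was listed at 1983 and 1975 TPM in normoxia, 2009 and 1632 at day 2 and 1887 and 1568 at day 7. Both day 7 libraries were below the normoxic ones, with a log2 fold change of −0.20 and a 95% confidence interval of −0.57 to 0.17. For Sox2 the values were 2809 and 3437 TPM in normoxia, 2771 and 3232 at day 2 and 2667 and 2876 at day 7. The conditions overlapped, with a day 7 log2 fold change of −0.17 (95% interval −0.55 to 0.21). Sall4 was at 438 and 437, 402 and 384, and 370 and 433 TPM in the same order. Its day 7 log2 fold change of −0.13 had an interval of −0.42 to 0.17.

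Utf1 was at 4575 and 4122 TPM in normoxic ESCs, 4216 and 3931 at day 2 and 4011 and 4484 at day 7, and Lin28a at 551 and 515, 615 and 391, and 495 and 531 TPM. Both overlapped between conditions. Their day 7 log2 fold changes were −0.03 (95% interval −0.39 to 0.33) and −0.06 (−0.51 to 0.40). For these 5 genes every 95% interval of day 7 against normoxia lay between −0.57 and 0.40.

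Among the formative genes, Sox3 was the one with the smallest p in ESCs. It was at 43.4 and 62.2 TPM in normoxia, 41.8 and 22.3 at day 2 and 21.6 and 31.2 at day 7. All hypoxic libraries were below both normoxic ones. The log2 fold changes were −0.76 on day 2 (SE 0.31, adjusted p = 0.970, limma) and −0.99 on day 7 (SE 0.31, adjusted p = 0.377), neither of which passed. In a fit to the 4 libraries of normoxia and day 7 alone, Sox3 was the 1 gene of the 10 that was called (adjusted p = 0.0457, limma), and 2.61% of all genes were. It was also called without day 2 replicate 1 (0.0463, limma) and without day 2 replicate 2 (0.0456), where 2.62% and 2.6% of all genes were. Without day 2 replicate 1, Sox3 (−1.20, adjusted p = 0.0486) and Zic2 (0.79, adjusted p = 0.0926) were also called on day 2, along with 4.02% of all genes. Per exon length, Sox3 made up 1.52% and 1.78% of the sum of Sox2 and Sox3 in normoxia, 1.49% and 0.685% at day 2 and 0.803% and 1.07% at day 7, so that 1 day 2 library was close to normoxia.

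Fgf5, widely used as a marker of the formative and primed epiblast, was near the bottom of the expressed range in ESCs, at 0.610 and 0.982 TPM in normoxia, 0.804 and 2.01 at day 2 and 2.36 and 1.17 at day 7. Both day 7 libraries were above both normoxic ones, and the mean TPM on day 7 was 2.22 times the normoxic mean, but the log2 fold change of 0.77 (SE 0.36) had an adjusted p of 0.665. Otx2 was at 16.1 and 25.9 TPM in normoxia, 21.3 and 35.7 at day 2 and 24.4 and 21.8 at day 7. Zic2 was at 102 and 144, 122 and 209, and 123 and 139 TPM, and Pou3f1 at 82.9 and 171, 96.4 and 172, and 119 and 68.5 TPM. For these 3 genes the conditions overlapped in every comparison, and the replicates of Pou3f1 in normoxia stood further apart than any means of conditions. Without overlap, 4 of the 10 genes differed between day 7 and normoxia, as did 40.5% of all genes.

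**Figure D3:**
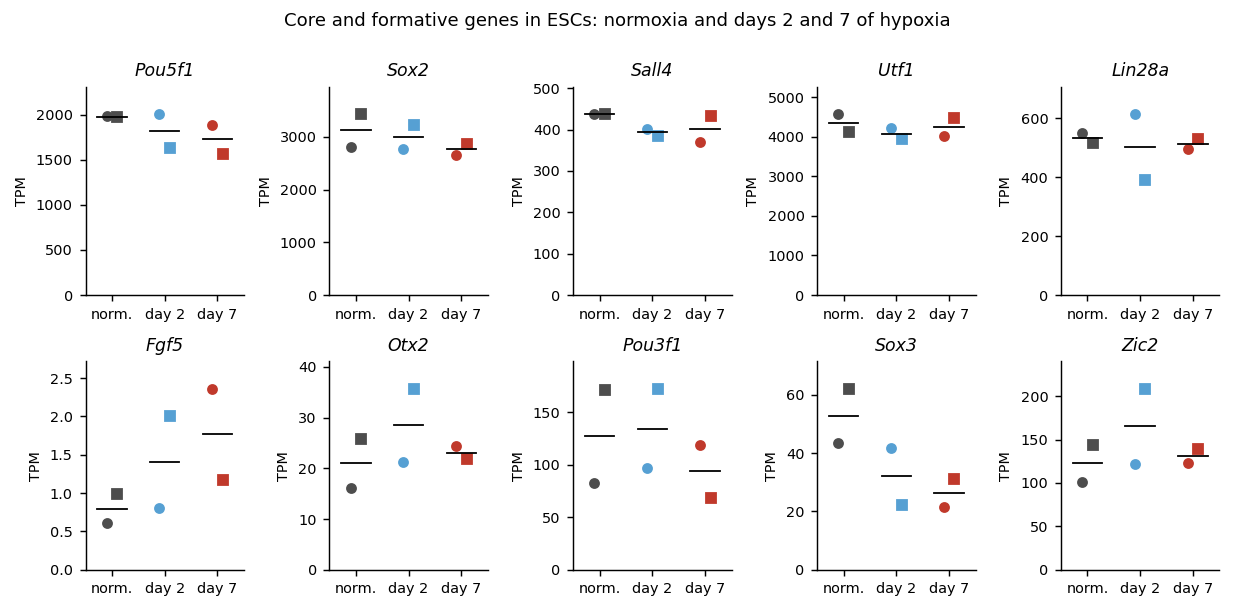
TPM (linear axis from 0) of the 10 genes in ESCs by condition, with circles for replicate 1, squares for replicate 2 and bars for the mean of 2 libraries. The core genes kept to a narrow range, Sox3 was lower in all 4 hypoxic libraries (21.6 to 41.8 TPM) than in normoxia (43.4 and 62.2 TPM), and Fgf5 stayed between 0.610 and 2.36 TPM.

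In XEN cells none of the 7 genes tested was called in any comparison, where 0%, 0.11% and 0.0367% of 10894 genes were called on day 2, on day 7 and between the days. At an unadjusted p under 0.05, 1, 3 and 3 of the 7 passed, against 7.77%, 9.01% and 11.9% of all genes. The highly expressed members were Lin28a and Sall4. Lin28a was listed at 426 and 551 TPM in normoxia, 370 and 444 at day 2 and 545 and 433 at day 7. Its day 7 log2 fold change was 0.00 (95% interval −0.48 to 0.48). Sall4 was at 170 and 323, 279 and 343, and 240 and 324 TPM, with 1 normoxic library below all others (day 7 log2 fold change 0.25, interval −0.50 to 1.0).

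Zic2 was the member with the smallest adjusted p in XEN cells. It was at 40.8 and 35.0 TPM in normoxia, 27.7 and 27.8 at day 2 and 15.5 and 17.6 at day 7, so that the 3 conditions stood in order without overlap. The day 7 log2 fold change of −1.17 (SE 0.16) had an adjusted p of 0.116, just outside the threshold, and 0.0639 without normoxia replicate 2 (limma), where 1.79% of all genes were called. Utf1 was at 8.85 and 8.54 TPM in normoxia, 16.2 and 16.2 at day 2 and 1.20 and 3.48 at day 7. These values rested on 6 to 112 reads per library, and the day 7 libraries were below and the day 2 libraries above those in normoxia. The log2 fold changes were −1.82 on day 7 against normoxia (SE 0.37, adjusted p = 0.230) and −2.68 against day 2 (SE 0.37, adjusted p = 0.218). Without day 7 replicate 2, Utf1 was called in both comparisons (adjusted p = 0.0533 and 0.0234, limma), as were 0.45% and 0.762% of all genes. Without normoxia replicate 1 or 2 it was called against day 2 (0.0728 and 0.0742, limma), where 0.33% of all genes were in each fit.

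Pou3f1 was almost undetected in normoxic XEN cells, with 0.480 and 0.098 TPM from 6 and 2 reads. It was listed at 0.298 and 1.42 TPM on day 2 and at 7.44 and 2.99 TPM on day 7, from 108 and 30 reads. Both day 7 libraries were above all others, opposite to the direction in TSCs, with a log2 fold change of 2.78 (SE 0.55) and an adjusted p of 0.224. From so few normoxic reads the log2 fold change depended on the setting, from 2.19 to 4.40 over the alternatives that kept all libraries of both conditions. Pou5f1 had 13 to 36 reads per library (0.842 to 1.48 TPM) and Otx2 0 to 50 reads (0 to 0.591 TPM) in XEN cells, and neither passed in any comparison.

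**Figure D4:**
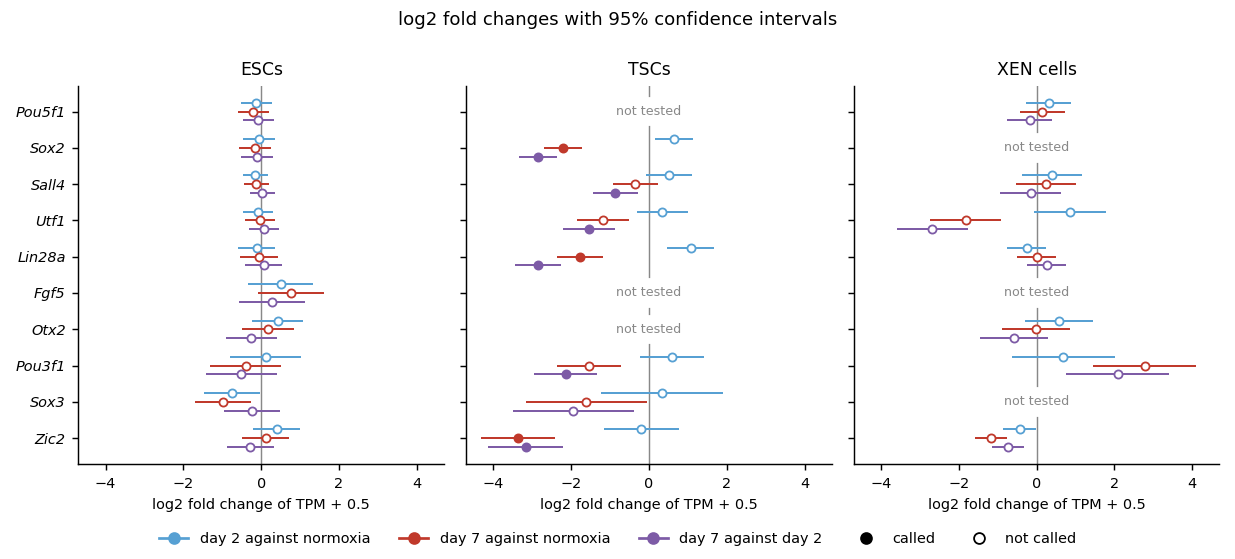
log2 fold changes of TPM + 0.5 (points) with 95% confidence intervals (lines) for the genes tested in each cell type. Filled points mark genes called at an adjusted p at or under 0.1 with a fold change over 1.5, which were 3 genes lower on day 7 than in normoxia and 6 lower on day 7 than on day 2, all in TSCs.

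Per exon length, the core genes led the order in ESCs. In normoxia Utf1 had the highest mean (1576), followed by Pou5f1 (1407), Sox2 (1051), Lin28a (696) and Sall4 (521), each without overlap with the next. The formative genes were lower, from Zic2 (63.4), Pou3f1 (42.9) and Otx2 (27.1) to Sox3 (17.8) and Fgf5 (2.45). Sall4 and Zic2 did not overlap, whereas each neighbouring pair from Zic2 to Sox3 did. By rank among the 13578 genes of the ESC table, Utf1 was at place 60 and Fgf5 at place 10766. With the deposited TPM, Sox2 stood above Pou5f1, Pou3f1 above Zic2 and Sox3 above Otx2, since gene span includes introns.

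In normoxic TSCs the order was Utf1 (865 TPM per exon length), Sox2 (219), Pou3f1 (139), Zic2 (69.0), Sall4 (67.9), Lin28a (66.5), Sox3 (14.2) and Fgf5 (0.551). Zic2, Sall4 and Lin28a overlapped each other, and all other neighbours were apart. In normoxic XEN cells it was Lin28a (585), Sall4 (269), Zic2 (17.9), Utf1 (2.89), Pou5f1 (0.688), Otx2 (0.232) and Pou3f1 (0.089), with an overlap between the last pair.

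The tables of the 3 cell types were normalized separately, so ratios between them are descriptions without a test. Lin28a was 10.5 times as high in normoxic ESCs as in TSCs but 1.19 times as high as in XEN cells. Sall4 was 7.67 times as high in ESCs as in TSCs and 1.93 times as high as in XEN cells. Utf1 was 1.82 times as high in ESCs as in TSCs and 545 times as high as in XEN cells. Of the formative genes, Pou3f1 was 3.24 times as high in TSCs as in ESCs, without overlap, and Zic2 and Sox3 overlapped between those cell types. Reads on the 10 genes made up 0.296% to 0.357% of the reads on all genes listed for ESCs. In TSCs the share of the 8 genes listed was 0.0638% and 0.0849% in normoxia, 0.0977% and 0.115% at day 2, and 0.0311% and 0.0326% at day 7. In XEN cells that of the 7 genes listed was 0.0754% to 0.111% without an order by condition. These shares cover different genes and are not compared between cell types.

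**Figure D5:**
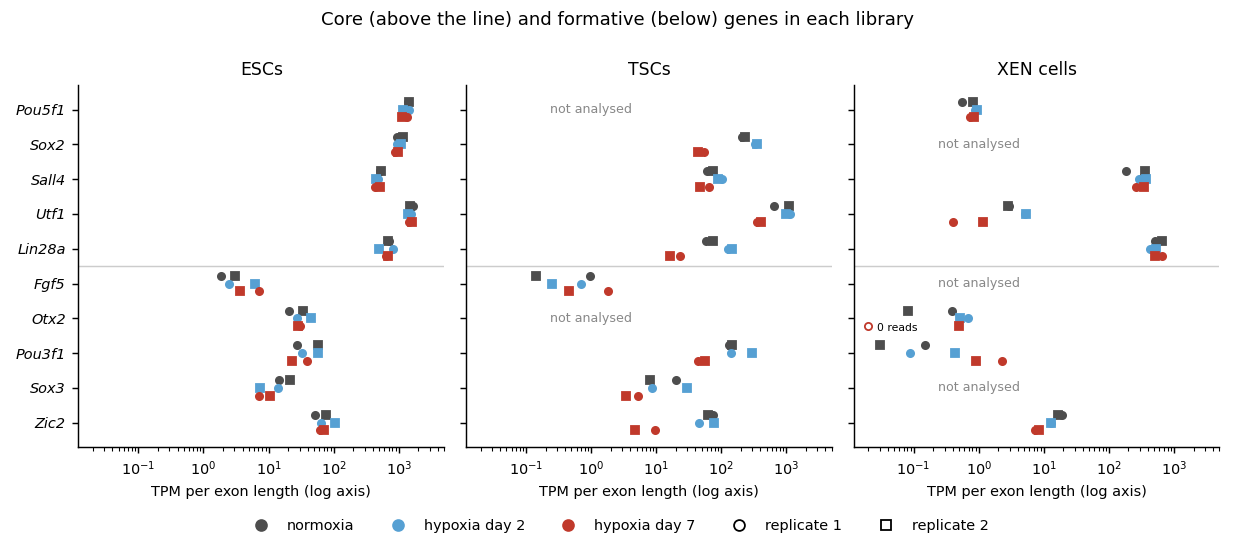
TPM per exon length (log axis) of each gene in every library of ESCs, TSCs and XEN cells, by condition (colour) and replicate (circle or square). Core genes stand above formative genes in ESCs, and Lin28a and Sall4 lead in XEN cells. In TSCs Utf1 leads in all libraries, followed by Sox2 in normoxia and on day 2. On day 7 Sall4 (64.4 and 46.9) was above Sox2 (55.2 and 43.5) in TSCs. The open circle marks Otx2 at 0 reads in 1 XEN library on day 7.

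Other genes of the pluripotency network were described from lists set beside the 10 genes. In TSCs on day 7, 2 of 11 naive factors tested were lower than in normoxia: Nr0b1 (12.8 and 12.6 TPM to 0.984 and 1.5, log2 fold change −2.94, adjusted p = 0.0346) and Esrrb (26.1 and 22.4 to 8.89 and 5.64 TPM, −1.70, adjusted p = 0.0957). Of 15 other formative genes 1 was lower, Zic5, the neighbour and relative of Zic2 (51.6 and 50.5 to 7.73 and 7.62 TPM, −2.66, adjusted p = 0.0161). Of 13 further pluripotency genes none was called. Of all genes tested in TSCs, 0.345% were called lower in this comparison with normoxia. Of 10 trophoblast genes 1 was lower, Elf5, which maintains the trophoblast stem cell state (60.4 and 56.6 to 18.8 and 14.7 TPM, −1.78, adjusted p = 0.0435). The median log2 fold changes of the naive, other formative, further pluripotency and trophoblast lists were −0.49, −0.97, −0.39 and −0.43, against −0.18 for all genes. Those of the fibroblast, neuroectoderm, primitive streak and primitive endoderm lists were −0.75, −0.67, −0.41 and −0.38. The part of the fibroblast RNA in these values was not tested.

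Between days 2 and 7 in TSCs, 6 of 11 naive factors, 4 of 13 further pluripotency genes, 7 of 15 other formative genes, 3 of 7 primitive streak genes, 2 of 6 early neuroectoderm genes and 5 of 10 trophoblast genes were lower, where 13.8% of all genes were. Of the 3 primitive streak genes, Eomes, used above as a TSC marker, fell from a mean of 370 to 123 TPM. T (1.73 to 0 TPM) and Tbx6 (4.37 to 0.973 TPM) were low on both days. Nr0b1 (−3.92), Tcf15 (−3.41) and Elf5 (−2.30) had the largest log2 fold changes of the naive, other formative and trophoblast lists. Krt8, a keratin of trophoblast epithelium, was the 1 trophoblast gene that was higher (1.23, adjusted p = 0.0754). Of 8 primitive endoderm genes tested 1 was lower and 1 higher.

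In ESCs on day 7, 1 of 16 naive factors was higher, Dppa3 (48.6 and 43.2 to 90.3 and 102 TPM, log2 fold change 1.06, adjusted p = 0.0222). None of the 16 other formative genes, 16 further pluripotency genes, 8 trophoblast genes or 5 neuroectoderm genes tested was called. Of all 12271 genes tested, 88 were called higher and 5 lower, so that lists of this size would mostly hold none. Of 9 primitive streak genes 3 were higher: T (2.05, adjusted p = 0.00739), Fgf8 (1.59, adjusted p = 0.0803) and Wnt3 (1.11, adjusted p = 0.0813). Of 5 fibroblast genes Col1a1 was higher (2.30, adjusted p = 0.0544), and the summed TPM of the fibroblast list was 30.9 to 35.6 in normoxia, 30.4 to 44.6 at day 2 and 39.1 to 48.4 at day 7. The day 7 sums were above those in normoxia without overlap, and Thy1, at 22.0 to 32.5 TPM over the 6 libraries, was not higher in them (23.5 and 24.8 TPM, against 26.6 and 23.1 TPM in normoxia). Their part in the ESC values was not tested. In XEN cells no gene of these lists was called, where 0%, 0.11% and 0.0367% of all genes were on day 2, on day 7 and between the days.

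Across the 18 libraries and 10899 genes present in all tables, the genes whose log2(TPM + 0.5) was most like that of a member are given as a description, since the libraries fall into 3 cell types that set most of the likeness. Recql4, Mad2l1 and Cbx3 were closest to Sall4, with Pearson's r of 0.985 for Recql4. Nup107, Timeless and Exo1 were closest to Lin28a (Nup107 at 0.984). Gab1, Cbx7 and Them6 were closest to Utf1 (Gab1 at 0.984), and Arhgdig, Rnf208 and Parp14 to Pou3f1 (Arhgdig at 0.983). Zic5 stood closest to Zic2 (0.978), followed by Notch1 at 0.924 and Epb41l2 at 0.911.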

How the data were processed

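RNA from ESCs, TSCs and XEN cells was sequenced by the authors as paired-end libraries (KAPA RNA HyperPrep, HiSeq4000). Per the labels and the study's methods, reads were trimmed with cutadapt 2.4, aligned to mm10 with STAR 2.7.5a and counted with featureCounts on a GENCODE annotation, with StringTie 2.0.6 also named. The authors kept protein-coding genes above 0.4 CPM (edgeR 3.26.8) in at least 2 of 6 libraries. The authors deposited TPM, 1 table per cell type, each normalized on its own, so no test was made between cell types. Day 0 columns were taken as normoxia. No column was left unmapped.

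Between 98.5% and 98.9% of values per library were within 0.05 of whole reads when multiplied by gene span (GENCODE M21 annotation), against 10.1% to 11.3% with exon length. The recovered reads gave depth, TPM per exon length and the voom alternative.

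Where TPM exceeded 0.4 in 2 or more of 6 libraries, a gene was tested on log2(TPM + 0.5) with limma 3.58.1 (R 4.3.3, mean-variance trend, all 6 libraries of a cell type, no replicate term), and p-values were adjusted by the Benjamini-Hochberg method over all genes tested. The fit was tested on simulated data. With 2 against 2 libraries an exact two-sided permutation test cannot go below 0.333 and was not used. Intervals are 95% confidence intervals of the fit. No library batch was given in the labels.

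All 10 genes were named in each table that held them. From other lists at most 3 called genes with the largest log2 fold change per comparison and at most 2 for a level were named, and for genes in all tables the 3 nearest by Pearson's r. The genes and lists were chosen with earlier results of these data known. Alternatives were other pseudocounts, filters, scaling, threshold, no trend, voom on recovered reads, the 4 libraries compared, a replicate block and each library left out. The block with swapped numbers was added after seeing the data. Python 3.11.15 with pandas 2.3.3 was used for summaries and matplotlib 3.10.9 for figures.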

Additional observations from a re-analysis of the deposited data

Results flagged for a closer look

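In TSCs the change against normoxia differed between days 2 and 7 for 6 of the genes, by the limma test of day 7 against day 2, which is the test of the difference between the 2 changes since both share the normoxic libraries. The difference on the log2 scale was −2.85 for Sox2, −0.86 for Sall4, −1.53 for Utf1, −2.85 for Lin28a, −2.14 for Pou3f1 and −3.17 for Zic2. Of all genes tested, 13.8% were called lower in the same comparison. Both day 7 libraries were below both day 2 libraries for each of these 6 genes, as they were for 44.9% of all genes tested. As given above, calls were lost when either day 7 library was left out. Without normoxic libraries of day 2 and day 7, a difference between the days in hypoxia cannot be told apart from one of time in culture.

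For Pou3f1 the day 7 libraries were below normoxia in TSCs and above it in XEN cells, a difference of −4.32 on the log2 scale (TSC minus XEN). It was not tested, since the tables were normalized separately, and the normoxic XEN values rested on 6 and 2 reads. For Sall4 the day 2 libraries were below normoxia in ESCs and above it in TSCs, a difference of −0.67 (ESC minus TSC) that was not tested either. No single comparison behind this pair of differences passed the threshold. With 2 libraries per condition, libraries that stand out within a condition could not be assessed.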

How the results depend on the processing

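Against normoxia on day 7 in TSCs, the count of 3 genes called became 1 with no filter on low values, 1 under the stricter threshold and 1 with the replicate block (Sox2 in each case), where 13, 12 and 13 of all genes were called against 48. The numbers were not treated as pairing, as the correlation of same-numbered deviations was between −0.46 and 0.27 over the comparisons. The replicate block also changed totals over all genes. ESC totals were 18 for day 7 against normoxia and 6 between the days (main fit 93 and 22). TSC totals were 3 for day 2 against normoxia and 1975 between the days (main fit 25 and 2019). The XEN total for day 7 against normoxia was higher, at 43 (main fit 12). Among the 10 genes described here, the block changed no other count of genes called. With the day 2 numbers swapped in the replicate block, the counts were 1 in ESCs on day 7, 1 and 6 in TSCs on days 2 and 7, and 1 in XEN cells on day 7, where 211, 326, 220 and 12 of all genes were called against 93, 25, 48 and 12 without it. Fitting only the 4 libraries compared gave 1 in ESCs on day 7 and 1 in XEN cells between the days, with 320 and 37 of all genes called against 93 and 4. With 1 library left out, counts ranged from 0 to 2 in ESCs on day 2, 0 to 1 on day 7, 0 to 3 in TSCs on day 7, 0 to 7 between the days, and 0 to 1 in XEN cells on day 7 and between the days. Fewer libraries remain in these fits, and the cause of the other changes was not tested. Signs turned with a library left out for Sall4 in XEN cells on day 2 (−0.062 to 0.86), Utf1 in TSCs on day 2 (−0.019 to 0.72), Pou3f1 in ESCs on day 7 (−0.92 to 0.12) and Zic2 in ESCs between the days (−0.67 to 0.11), none of them called. For values within 1 SE of 0 and not called, a change of sign was not counted. Of 1221 values of single genes under alternatives, 1164 kept their direction and their side of the threshold by these rules, 29 lost a call, 24 gained 1 and 4 changed sign. Most of the 1221 were of genes not called in the main fit, for which staying uncalled counted as kept. Only the 3 and 6 calls in TSCs on day 7, against normoxia and against day 2, could be lost. The total is therefore no measure of how well the calls held. Low read numbers limit Fgf5, and Utf1, Pou3f1, Otx2 and Pou5f1 in XEN cells.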
